A study of Mus musculus with 18 samples.

Results

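The cytosolic ribosomal protein genes are the genes for the proteins of the large and small subunits of the ribosome outside mitochondria. Of 32285 features in the gene expression tables, 86 were taken by name: Rpl or Rps followed by a digit, together with Rplp0, Rplp1, Rplp2 and Rpsa, without the Rps6k kinases and without pseudogenes whose names hold -ps. They comprised 43 large-subunit genes, 31 small-subunit genes, the 3 genes of the P stalk (Rplp0, Rplp1, Rplp2) and 9 paralog-like or other genes (Rpl3l, Rpl7l1, Rpl10l, Rpl22l1, Rpl36al, Rpl39l, Rps27l, Rps27rt and Rps19bp1). Rps19bp1 matches the name rule but encodes a nucleolar protein that binds Rps19, not a ribosomal protein. The rule leaves out Fau, which encodes a ribosomal protein as a fusion and was described separately. Of the 86, 83 passed the filter on low counts in every comparison, and the other 3 were near absent. In all cells of the marker gates described below there were 85 molecules of Rpl39l, 19 of Rpl3l and 0 of Rpl10l.

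The study took gut immune cells from ST8Sia6 knockout (KO), heterozygous (het) and wild-type (WT) mice, St8sia6 encoding a sialyltransferase that builds chains of sialic acid on glycoproteins. Of the mice, 1 KO, 1 het and 2 WT entered each of 3 independent runs. Cells were taken from the small bowel epithelium, the small bowel lamina propria and the colon, where epithelium and lamina propria were combined. All were Percoll-separated and enriched for CD45+ cells, and each genotype carried its own hashtag antibody, so a WT sum pools cells of 2 mice and a KO or het sum comes from 1. Strain, age and the deleted part of St8sia6 are not given in the sources used here. Barcode endings 1 to 3, 4 to 6 and 7 to 9 of each tissue form libraries 1, 2 and 3, and the genotype of an ending is that of the hashtag with the highest median there. Library 1 of one tissue cannot be tied to library 1 of another.

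A ribosome carries a single copy of most of these proteins, whose genes lie scattered over the genome and are transcribed at high and similar levels in growing cells. Most of their mRNAs begin with a terminal oligopyrimidine (TOP) tract, a cytosine at the cap followed by further pyrimidines, through which mTOR signalling and the repressor Larp1 control their translation together. In the gut, plasma cells devote much of their mRNA to secreted immunoglobulin, and epithelial cells to proteins of digestion and of the barrier.

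Around the annotated start, 30 of the 66 members with an entry in the RefSeq promoter table (GRCm38.p6) held a pyrimidine run, counted as a C within 5 bases of the start followed by at least 4 letters that are each C or T. This is 45.5%, against 21.2% of all 27025 genes with a listed start, 5718 of which held such a run. Among core members, meaning those that are not paralog-like, it was 27 of 57 (47.4%), among paralog-like members 3 of 9 (33.3%) and among mitochondrial ribosomal protein genes 17 of 69 (24.6%). Of listed translation factor and related genes, 3 of 10 (30%) held a run. The run was the only motif searched, on the transcribed strand, in windows of the same length for all genes. A gene was counted if any of its listed starts held a run, so genes with several starts had more chances. The letters below are shown for the members whose values the following results turn on: the 15 bases before the annotated start and the first 15 from it, 5′ to 3′, with the run in capitals.
Rps18 at chr17:33955651-33955680 on the minus strand: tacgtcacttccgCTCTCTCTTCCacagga
Rps27 at chr3:90213634-90213663 on the minus strand: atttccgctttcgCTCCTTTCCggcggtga
Rps27rt at chr9:114982725-114982754 on the minus strand: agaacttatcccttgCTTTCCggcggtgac
Rps27l at chr9:66946071-66946100 on the plus strand: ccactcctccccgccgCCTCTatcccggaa
Rplp2 at chr7:141447636-141447665 on the plus strand: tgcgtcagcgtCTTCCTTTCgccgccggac
Rps15a at chr7:118116133-118116162 on the minus strand: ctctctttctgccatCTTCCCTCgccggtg
Rps15 at chr10:80292416-80292445 on the plus strand: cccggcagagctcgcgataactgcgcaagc
Rplp0 at chr5:115559452-115559481 on the plus strand: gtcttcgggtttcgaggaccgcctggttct
Rpl36al at chr12:69184053-69184082 on the minus strand: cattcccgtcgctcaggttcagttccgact
A match is a description of these letters and not evidence of regulation. Rps15, Rplp0 and Rpl36al held no run in this window under this count. Rps27l has another listed start, at chr9:66946398-66946427, which held no run.

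In all, 59338 of 60272 deposited cells passed the limits on genes, molecules and mitochondrial share, and they held 444170990 molecules. Cells were gated by 1 marker each, with at least 1 molecule of it and 0 of the other 4: Cd3e for T cells (12926 cells), Ms4a1 for B cells (2441), Mzb1 for plasma cells (7090), C1qa for macrophages (426) and Epcam for epithelial cells (6174). Cells with 2 or more of these markers (22332) and with none (7949) were left out, and subsets within a gate were not separated. Counts were summed per library, genotype, tissue and gate, which gave 120 sums of 26750 to 9561597 molecules, and 14 sums of under 10 cells were left out. All 5 markers listed for each cell type had a median above 0 over the sums of its gate, though single sums of small gates held none of some markers. The gates were not free of other RNA: Jchain, a plasma cell gene, had a median of 2685 CPM (molecules of the gene scaled to a common total) in Cd3e+ cells of the lamina propria, against 13.1 in the epithelium. No barcode was shared among the 3 endings of a library, and 139 to 197 per tissue were shared between libraries.

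St8sia6 itself was counted in all 3 genotypes. In Mzb1+ cells of the lamina propria, the gate with the most, it gave 751 molecules in KO sums (35.5 to 45.2 CPM), 622 in het sums (53.9 to 59.2 CPM) and 1135 in WT sums (62.1 to 75.6 CPM), with no overlap between genotypes. Epithelial Cd3e+ cells gave 36, 19 and 23 molecules in KO, het and WT sums. Molecules can come from parts of the gene outside the deletion, so these counts do not check the genotype labels. In library 3 of the lamina propria, the WT hashtag led in 55.7% of the cells of the WT ending, and in libraries 1 and 2 of the epithelium in 84.2% and 72.5%. This WT ending of the lamina propria was also shallow, with medians of 1422.5 molecules and 505.5 genes per deposited cell. The other endings of that tissue had medians of 3105 to 4696 molecules and 1287.5 to 1435 genes. Results that rest on these endings are given without them, or with genotype taken by hashtag share in each cell, where they change.

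Members supplied between 6.10% and 26.2% of a WT sum's molecules, depending on the gate. In the colon of WT mice the share was 14.9% ± 0.58 in Epcam+ cells, 12.7% ± 2.42 in C1qa+ cells (n = 2), 11.3% ± 2.26 in Mzb1+ cells, 22.3% ± 1.11 in Ms4a1+ cells and 19.3% ± 1.69 in Cd3e+ cells (SD, n = 3 unless given). Ms4a1+ sums lay above every Cd3e+ sum, and Epcam+, C1qa+ and Mzb1+ sums lay below. Each of these differences except that of C1qa+ cells reached the exact two-sided permutation p of 0.1, the smallest that 3 against 3 allows, with an adjusted p of 0.317 over the 19 comparisons. With C1qa+ cells the exact permutation p was 0.2, the smallest for 2 against 3. The level in colon Mzb1+ cells depended on the processing. It was 7.23% ± 0.76 with genotype taken by hashtag share and 9.27% ± 1.45 with at least 2 molecules of the gate marker, below Cd3e+ sums in both. Without immunoglobulin genes, Mzb1+ and Cd3e+ sums overlapped, at 18.5% ± 2.08 and 19.4% ± 1.70 (exact permutation p = 0.6, adjusted p = 0.76). A share is relative: fewer ribosomal molecules and more of everything else cannot be told apart. In Mzb1+ cells of the lamina propria, where immunoglobulin genes made up 52.8% of WT molecules, members supplied 6.36% ± 0.23, and 13.5% of what remained without immunoglobulin genes.

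By tests that did not pair sums of the same library, the share did not separate the genotypes in Cd3e+ cells. In the epithelium it was 15.3% ± 0.68 in KO, 14.9% ± 0.67 in het and 15.6% ± 1.39 in WT sums, while colon sums gave 18.95% ± 0.77, 18.9% ± 1.16 and 19.3% ± 1.69 in the same order (SD, n = 3 each). In the lamina propria it was 17.9% ± 0.48 in KO, 16.5% ± 0.65 in het and 17.0% ± 1.06 in WT sums. Only KO and het did not overlap there (exact permutation p = 0.1, adjusted p = 0.317). Without immunoglobulin genes KO and het overlapped, at 18.3% ± 0.52 and 16.9% ± 0.77 (exact permutation p = 0.2). In cells of at least 1000 molecules and 500 genes they also overlapped, at 18.0% ± 0.49 and 16.6% ± 0.78 (exact permutation p = 0.2). They stayed apart without mitochondrial genes, with genotype taken by hashtag share and with at least 2 molecules of the gate marker. The share in lamina propria Mzb1+ cells was 7.20% ± 0.55 in KO and 6.36% ± 0.23 in WT sums without overlap, again at the smallest possible p of 0.1 in the exact permutation test and an adjusted p of 0.317. Colon Mzb1+ cells had 9.14% ± 0.72 in KO and 11.3% ± 2.26 in WT sums, which overlapped. With genotype taken by hashtag share they had 6.56% ± 0.99 in KO (n = 2) and 7.23% ± 0.76 in WT sums, again with overlap. The KO minus WT difference thus had opposite signs in these 2 tissues, and the difference between tissues was not tested.

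**Figure D1:**
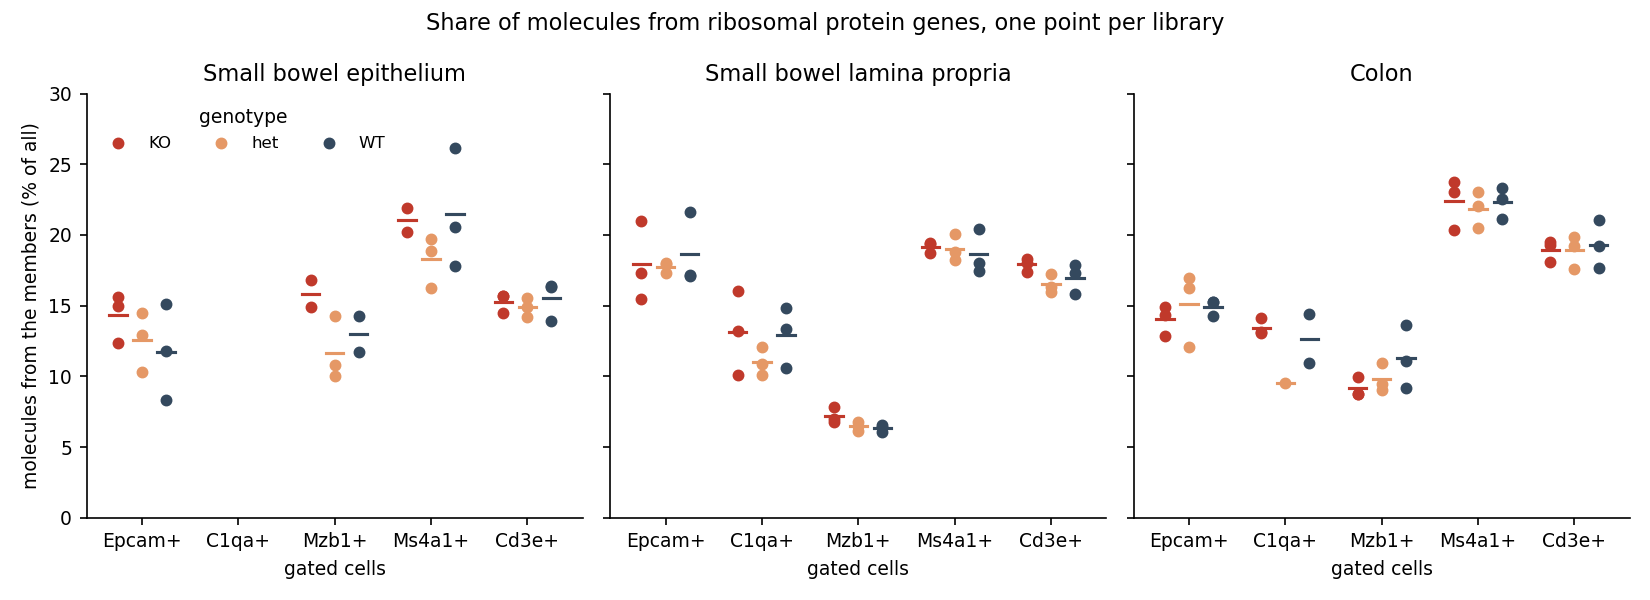
Percent of all molecules that came from the 86 members, by tissue (panels), gate (x axis) and genotype (colour, KO left of het and WT), with one point per library and a bar at the mean. In the colon Ms4a1+ cells are highest, at 22.3% in WT sums, and Mzb1+ cells of the lamina propria are the lowest of all, at 6.36%, while the genotypes of a gate mostly overlap.

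Each molecule was counted once, whatever the length of its transcript, so levels of different members are compared in CPM without division by length. Rps24, a small-subunit protein, or Rpl41, the shortest of the ribosomal proteins, was the highest member in each of the 14 tissue and gate combinations with WT sums. In Cd3e+ cells of the WT colon, Rps24 reached 5750 CPM, the median member 2245 CPM, and 69 of 86 members exceeded 1000 CPM. The 10 highest members held 22.3% to 25.8% of member molecules in these combinations. The order of the 86 members was alike in every pair of combinations, with a Spearman rho from 0.783 (colon Epcam+ against lamina propria Ms4a1+ cells) to 0.991 (Epcam+ cells of colon against epithelium). These are descriptions across genes that share libraries and transcript properties. For the ratio of large-subunit to small-subunit molecules, the P stalk genes were counted with the large subunit. In WT colon this ratio was 1.32 ± 0.0169 in Epcam+, 1.23 ± 0.0230 in Mzb1+, 1.16 ± 0.00160 in Ms4a1+ and 1.21 ± 0.0229 in Cd3e+ cells (SD, n = 3).

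No member differed between genotypes past an adjusted p of 0.05 in any of 12 comparisons, by edgeR's quasi-likelihood test with library as a block. Over all genes, the share called for KO against WT was 0.835%, 0.292% and 0% in Cd3e+ cells of the epithelium, lamina propria and colon, 0.106% in Ms4a1+ cells of the colon, and 0.0474% and 0% in Mzb1+ cells of the lamina propria and colon. It was 0.902%, 0.0769% and 0.00982% for het against WT and 0.1%, 0.0462% and 0% for KO against het in Cd3e+ cells of the epithelium, lamina propria and colon. At an unadjusted p under 0.05, for KO against WT in Cd3e+ cells, there were 8, 5 and 6 of 83 members in these tissues, where 13.7%, 10.4% and 5.43% of all genes were at that p. There were 0 in Ms4a1+ cells of the colon (4.43% of all genes), 2 in Mzb1+ cells of the lamina propria (10.6%) and 0 in Mzb1+ cells of the colon (8.76%). For het against WT in Cd3e+ cells there were 13, 16 and 1 members, beside 11.9%, 8.12% and 4.6% of all genes, and for KO against het 3, 11 and 0 members, beside 6.31%, 6.4% and 4.8%. DESeq2 called 0 members in 11 of the 12 comparisons and 1, lower in het, for het against WT in the epithelium. In the 3 comparisons where edgeR called 0 genes in all, 553 (KO against WT, Cd3e+ cells of the colon), 608 (KO against WT, Mzb1+ cells of the colon) and 489 genes (KO against het, Cd3e+ cells of the colon) were at an unadjusted p under 0.05, and DESeq2 called 1, 27 and 1.

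The data set limits on member changes. In Cd3e+ cells, KO against WT, the median log2 ratio over members was −0.02 for the epithelium, 0.04 for the lamina propria and −0.01 for colon, beside −0.0011, −0.0032 and −0.0005 over all genes. The 95% interval of the log2 ratio lay within ±0.5, a fold of 1.41 either way, for 81, 77 and 81 of the 83 members in these tissues. In Ms4a1+ cells of the colon it did so for 80 members and in Mzb1+ cells of the lamina propria for 79. In Mzb1+ cells of the colon, where the median standard error was 0.34, it did so for 3, so changes below that fold were not detectable there. For het against WT the intervals of 82, 72 and 81 members lay within the bound, and for KO against het those of 83, 79 and 80.

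Most members leaned one way in some of these comparisons, by amounts below the test. For lamina propria Mzb1+ cells, 78 of 83 log2 ratios of KO over WT were positive, with a median of 0.13. For lamina propria Cd3e+ cells, 82 of 83 ratios of KO over het were positive, with a median of 0.15, and 70 of 83 ratios of het over WT were negative, with a median of −0.09. For Mzb1+ cells of the colon, 66 of 83 ratios of KO over WT were negative, with a median of −0.10. Members move together through the scaling of a library, so these counts are not 83 separate observations. Rps2, a small-subunit protein near the mRNA entry, was the member with the smallest p for KO against WT in both gates of the lamina propria. In Cd3e+ cells it had 2773, 2780 and 2587 CPM in KO libraries 1 to 3, against 2205, 1887 and 2335 CPM in WT (log2 ratio 0.35, SE 0.10, edgeR adjusted p = 0.203). In Mzb1+ cells it had 1095, 992 and 987 CPM in KO, against 862, 735 and 898 CPM in WT (log2 ratio 0.31, SE 0.12, edgeR adjusted p = 0.418). KO was higher in all 3 libraries of both gates, but neither difference passed the adjustment.

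**Figure D2:**
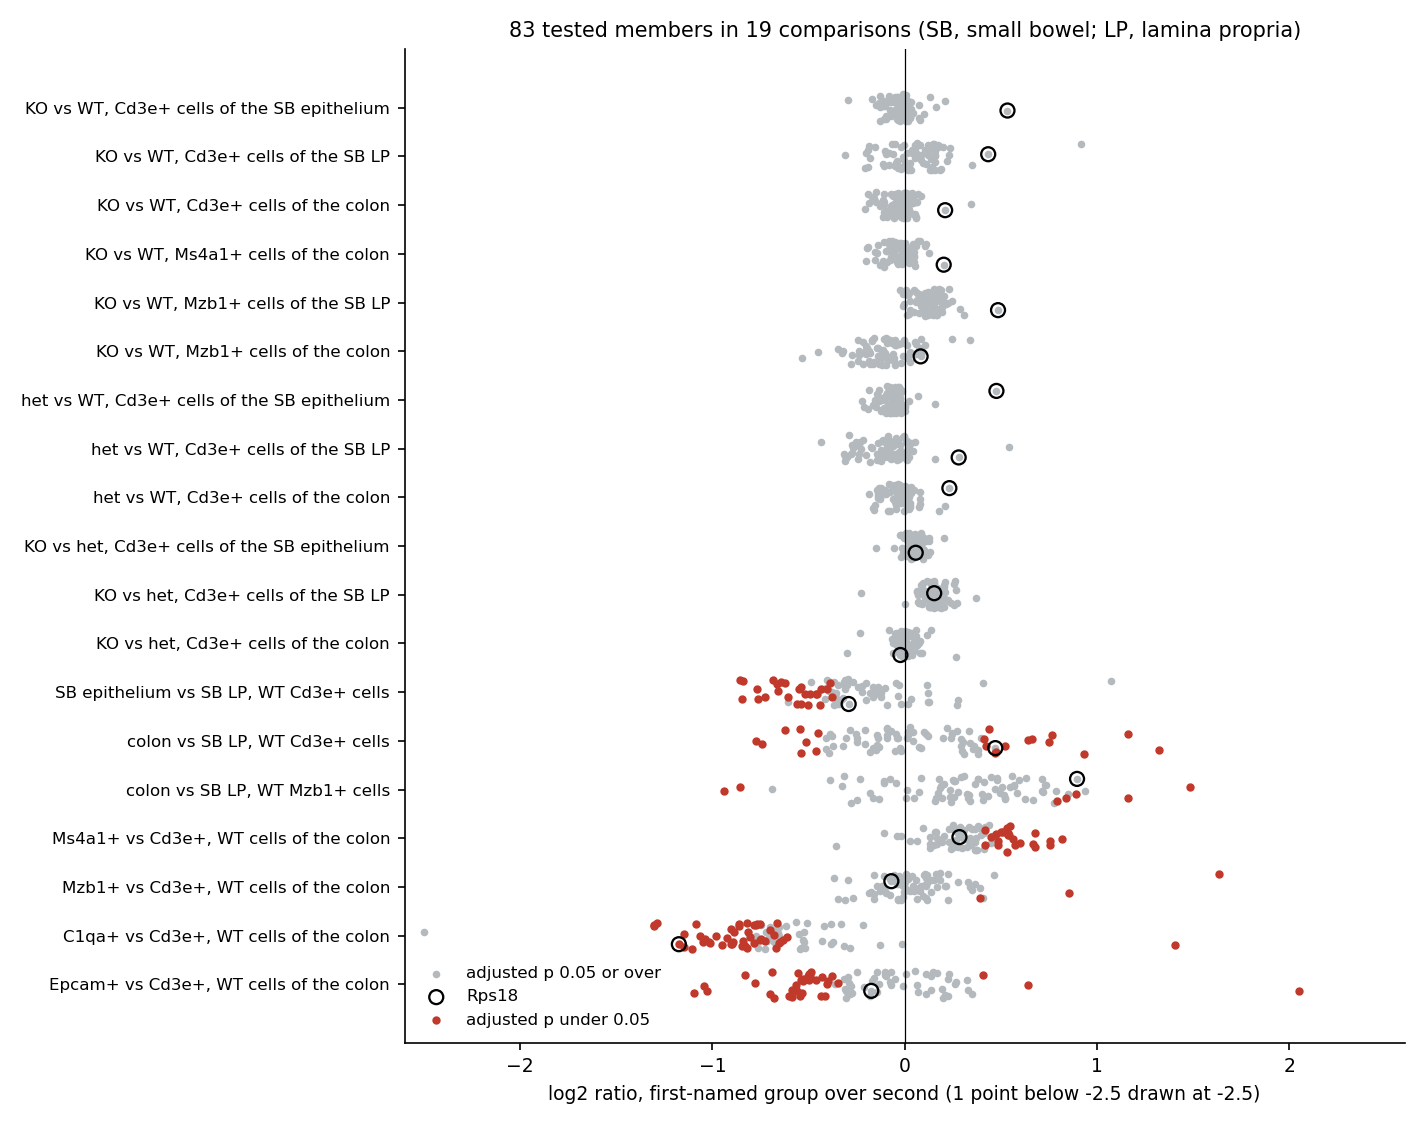
Log2 ratios of the 83 tested members in 19 comparisons (rows), first-named group over second-named group, one dot per member, red where the edgeR adjusted p is under 0.05 and Rps18 circled. Genotype rows hold no red dot and cluster near 0, while tissue and cell type rows spread widely. Rps18 ranks 1st or 2nd in the rows against WT, except in Mzb1+ cells of the colon, where it ranks 6th. The point drawn at the left edge is Rps19bp1, with 0 molecules in C1qa+ cells.

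Rps18, a protein of the head of the small subunit, stood out among the members in KO against WT and het against WT. Its log2 ratio of KO over WT ranked 1st to 2nd of 83 in Cd3e+ cells of the 3 tissues, 1st in Ms4a1+ cells of the colon and in Mzb1+ cells of the lamina propria, and 6th in Mzb1+ cells of the colon. The member above it in Cd3e+ cells was Rpl7l1 (0.92) in the lamina propria and Rps27l (0.35) in the colon. In Cd3e+ cells of the epithelium Rps18 had 1914, 1665 and 1785 CPM in KO libraries 1 to 3, against 1390, 855 and 1520 CPM in WT. All KO values lay above all WT values (log2 ratio 0.53, SE 0.11, edgeR adjusted p = 0.0549), and the next highest member, Rps27l, was at 0.21. Rps18 passed with library totals, without the filter on low counts and with genotype taken by hashtag share. In the lamina propria it had 1982, 1777 and 1943 CPM in KO, against 1486, 990 and 1850 CPM in WT, with overlap (log2 ratio 0.43, SE 0.14, edgeR adjusted p = 0.238). In the colon it had 2458, 1933 and 2382 CPM in KO, against 2404, 1117 and 2607 CPM in WT, so that only the WT sum of library 2 was low (log2 ratio 0.21, SE 0.15, edgeR adjusted p = 0.990). Het sums were like KO sums: in the epithelium 1868, 1601 and 1681 CPM, for a log2 ratio of het over WT of 0.48 (SE 0.11, edgeR adjusted p = 0.0864). KO over het was 0.06 (epithelium), 0.15 (lamina propria) and −0.02 (colon).

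Gm10260 is listed by RefSeq as the pseudogene Rps18-ps6 on chromosome 13 (97760087 to 97760609). In Cd3e+ cells its counts were high in the WT sums in which Rps18 (chromosome 17, 33951998 to 33955665, minus strand, GRCm38.p6) was low. In the 80 KO and het sums, 0% to 1.91% of the molecules of both genes were Gm10260. In 25 of 40 WT sums they were 10.7% to 50%, and in the other 15 WT sums 0% to 0.787%. In Cd3e+ cells of the epithelium Gm10260 had 4.64, 6.49 and 9.22 CPM in KO libraries 1 to 3, against 584, 659 and 417 CPM in WT, with no overlap (log2 ratio −6.36, SE 0.19, edgeR adjusted p = 3.11e-09). Het over WT was −6.19 there. In Mzb1+ cells of the lamina propria it had 1.54, 1.78 and 0.399 CPM in KO, against 132, 197 and 4.15 CPM in WT (log2 ratio −6.31, edgeR adjusted p = 0.0429), a call that was lost without library 2, without library as a block and with library totals. In Ms4a1+ cells of the colon it had 2.69, 18.9 and 0 CPM in KO, against 1.47, 876 and 1.60 CPM in WT (log2 ratio −5.38, edgeR adjusted p = 9.20e-08). That call rests on the WT sum of library 2 alone, and it was lost by DESeq2 and without library as a block. For colon Cd3e+ cells it was −5.51 with an adjusted p of 0.0771, and it rests on the WT sum of library 2, with 784 CPM beside 2.00 and 3.93 CPM in WT libraries 1 and 3. The identity of the 2 sequences was not computed. How reads that fit both were assigned is not given in the sources used here, so each count alone is uncertain.

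The Gm10260 share varied widely between WT libraries and, in the colon and the lamina propria, little between the gates of library 2. In WT Cd3e+ cells it was 29.6%, 43.5% and 21.5% in libraries 1 to 3 of the epithelium, 20.2%, 38.1% and 0.362% for lamina propria libraries, and 0.0833%, 41.3% and 0.151% for colon libraries. All 13 WT sums numbered library 2, a number that is not tied across tissues, lay between 35.1% and 50%. Both ends were in the epithelium, in Ms4a1+ (exact 95% interval 25.6% to 45.4%) and Mzb1+ cells (41.8% to 58.2%). Over the WT libraries of the epithelium, the lowest share was 10.7% in Mzb1+, 11.1% in Ms4a1+, 21.5% in Cd3e+ and 26.3% in Epcam+ cells. In the colon library 2 gave 42.6% in Epcam+ (exact 95% interval 40.9% to 44.3%), 41.2% in Mzb1+ (38.3% to 44.1%), 39.4% in Ms4a1+ (37.8% to 40.9%) and 41.3% in Cd3e+ cells (40.0% to 42.5%). The intervals cover counting error only. WT sums of libraries 1 and 3 of the colon had 0.169% at most, near the KO and het sums.

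The molecules of both genes added together overlapped between genotypes. These summed values are scaled to library totals. The CPM of Rps18 and Gm10260 given above are scaled within the edgeR fits, so a summed value can lie below them. The sum in Cd3e+ cells was 1704 to 1892 CPM in KO, 1617 to 1849 in het and 1539 to 1965 in WT sums of the epithelium. It was 1717 to 1906, 1616 to 1718 and 1520 to 1755 CPM in KO, het and WT sums of the lamina propria, and 1986 to 2400, 2043 to 2402 and 1965 to 2532 CPM in those of the colon. With the summed count in place of Rps18, the log2 ratio of KO over WT in Cd3e+ cells was −0.01 for epithelium, 0.11 for lamina propria and −0.02 for colon sums, and that of het over WT −0.06 in the epithelium. Without library 2, the Rps18 log2 ratio of KO over WT in Cd3e+ cells of the colon was −0.05.

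**Figure D3:**
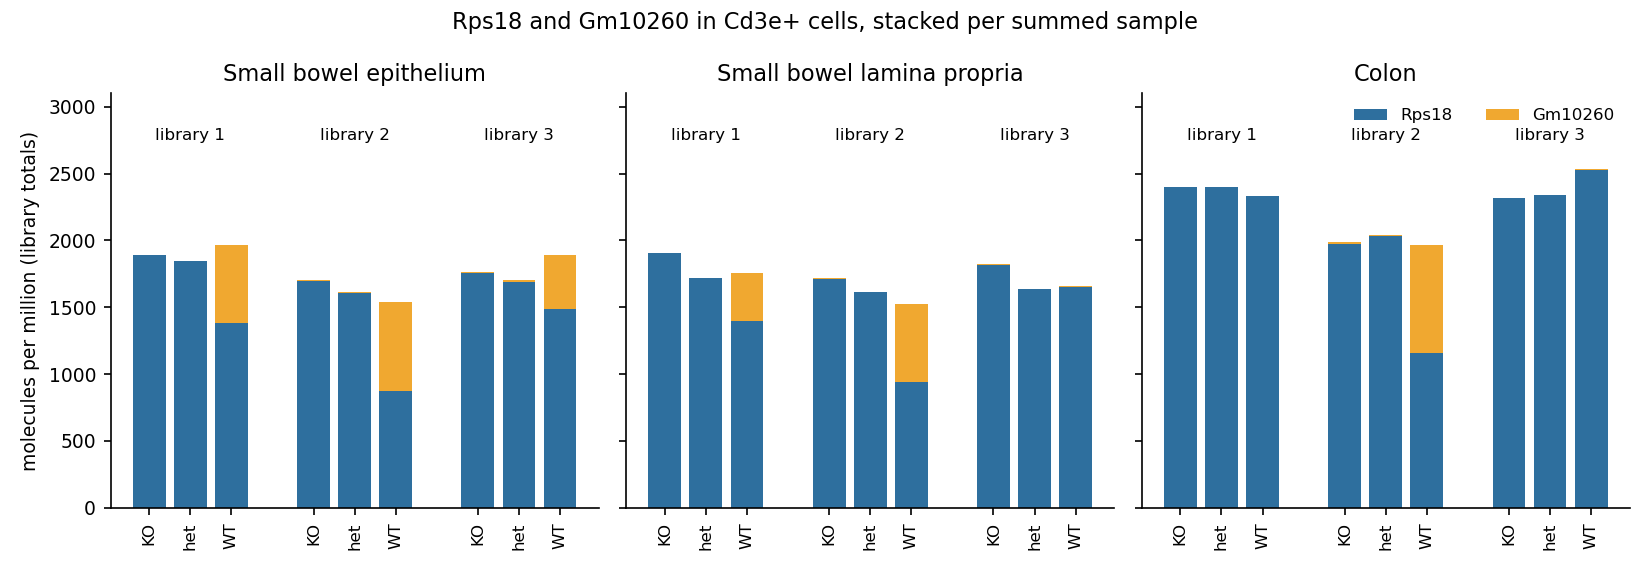
CPM of Rps18 (blue) and Gm10260 (orange) in Cd3e+ cells, scaled to library totals and stacked for each library and genotype (KO, het, WT from left to right) in the 3 tissues. Gm10260 is visible in WT sums of libraries 1, 2 and 3 of the epithelium, 1 and 2 of the lamina propria and 2 of the colon, and the stacked heights of the genotypes overlap.

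Single WT cells with at least 10 molecules of both genes together were divided into those with and those without Gm10260. In the colon, all 257 such Cd3e+ cells of library 2 held both, whereas 98.7% and 98.6% of those of libraries 1 and 3 held no Gm10260. In the epithelium both were found in 167 of 168 Cd3e+ cells of library 2 (99.4%). Libraries 1 and 3 were mixed, with 102 cells with both and 42 without Gm10260 (70.8% and 29.2%) in library 1 and 312 and 252 (55.3% and 44.7%) in library 3. Among Mzb1+ cells of the lamina propria, 67 of library 1 held both and 31 no Gm10260, all 76 of library 2 held both, and 49 of library 3 held no Gm10260 beside 4 with both. In KO and het cells under the same minimum, 0% to 11.0% held a Gm10260 molecule per sum, the source of which was not tested. Of the cells under this minimum in all 3 genotypes, 0 lacked Rps18. WT cells come from 2 mice per run, and which mouse gave which cell is not given.

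**Figure D4:**
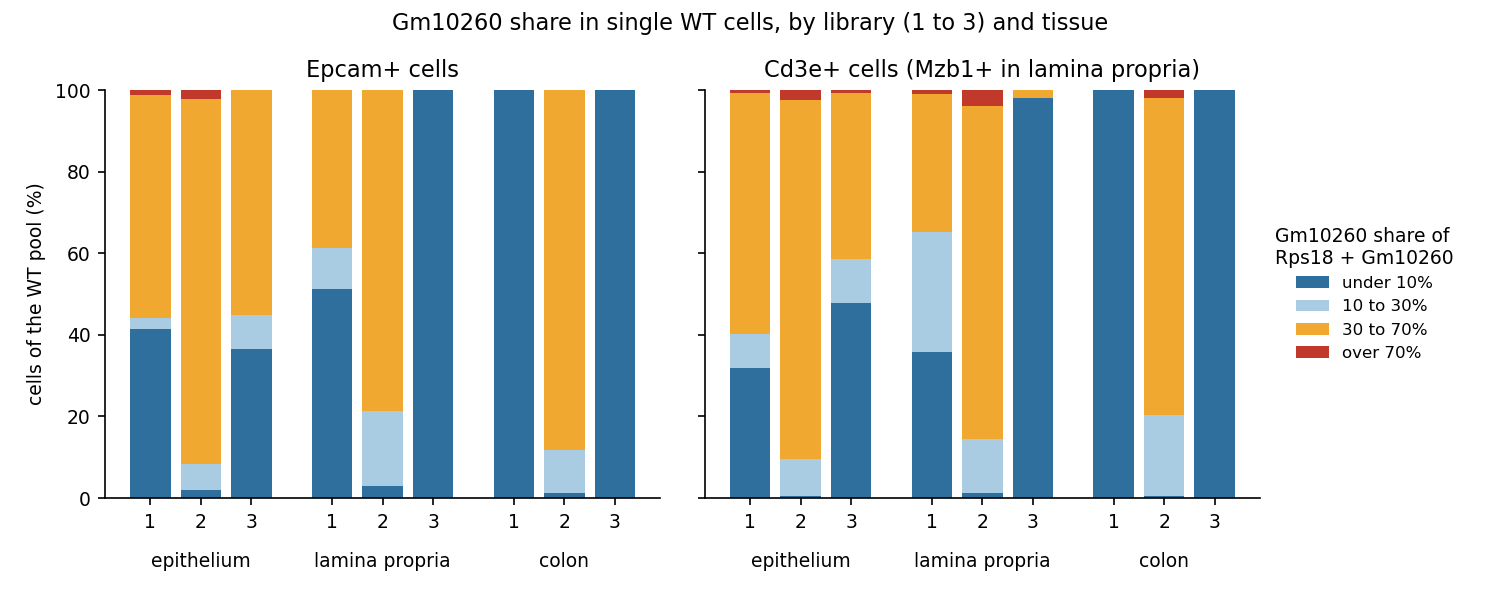
WT cells with at least 10 molecules of Rps18 and Gm10260 together, divided by the Gm10260 share of those molecules, for libraries 1 to 3 of each tissue (x axis, bars stacked to 100%), with Epcam+ cells in the left panel and Cd3e+ cells, or Mzb1+ cells in the lamina propria, in the right. Library 2 bars are mostly at 30% to 70%, libraries 1 and 3 of the colon are wholly under 10%, and libraries 1 and 3 of the epithelium and 1 of the lamina propria hold both kinds.

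H2-Q2, a class I histocompatibility gene on the chromosome of Rps18, had high values in WT Cd3e+ sums of the epithelium and of colon library 2. In Cd3e+ cells of the epithelium it had 7.63 to 8.46 CPM in KO, 6.64 to 10.5 in het and 44.8, 63.3 and 27.8 CPM in WT libraries 1 to 3 (KO over WT log2 ratio −2.46, edgeR adjusted p = 0.000122). In the colon it had 9.73 to 15.5 CPM in KO and 5.08 to 18.7 CPM in het sums. WT sums of colon libraries 1 to 3 had 11.0, 101 and 8.59 CPM, so that only library 2 was high. In the lamina propria the genotypes overlapped, at 0 to 7.78 CPM in KO, 1.69 to 16.6 in het and 6.00 to 26.3 CPM in WT sums. H2-Q2 was 1 of 13 genes listed as Rps18 neighbours or nearby class I genes and the 1 called for KO against WT in the epithelium. Whether the H2-Q2 and Gm10260 differences share a source was not tested.

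Between tissues, Cd3e+ cells of WT epithelium had lower levels of many members than those of the lamina propria. Of the 83 members, 26 were lower and 0 higher, where 20.3% of all genes were called (7.5% higher, 12.8% lower). The median log2 ratio was −0.34 over members and 0.10 over all genes. The 26 were 12 of 43 large-subunit genes, 12 of 31 small-subunit genes and 2 of 3 P stalk genes. The count was 6, 18 and 11 without library 1, 2 or 3, each with 0 higher, 39 lower by DESeq2, and 13 lower beside 3 higher with scaling to library totals.

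The largest falls were in Rps15, Rps12 and Rpl23a. Rps15, a small-subunit protein of the decoding region, had 463, 429 and 533 CPM in libraries 1 to 3 of the epithelium, against 748, 861 and 971 CPM in the lamina propria (log2 ratio −0.85, SE 0.14, edgeR adjusted p = 0.000317). Rps12, of the small-subunit head, had 1698, 1435 and 1852 CPM, against 2987, 3129 and 2826 CPM (log2 ratio −0.84, SE 0.14, edgeR adjusted p = 0.000364). Rpl23a, at the exit of the peptide tunnel, had 385, 376 and 429 CPM, against 748, 691 and 700 CPM (log2 ratio −0.84, SE 0.12, edgeR adjusted p = 9.56e-05). For none of the 3 genes did the tissues overlap. The P stalk split: Rplp2, whose log2 ratio was −0.76, and Rplp1, at −0.56, both fell, and they form the flexible arms that recruit elongation factors. Rplp0, their anchor, stood at 2012 ± 237 CPM in the epithelium and 1666 ± 96.1 CPM in the lamina propria, and did not pass (log2 ratio 0.27, SE 0.14, edgeR adjusted p = 0.197). Other called members with large ratios were Rps19 (−0.77), Rps20 (−0.73), Rpl41 (−0.68), Rpl30 (−0.66), Rpl5 (−0.66), which carries the 5S RNA into the large subunit, and Rps25 (−0.64).

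Other values differed between these tissues as well. Cd3e+ cells had median molecule counts of 4264 to 5476.5 per cell and sum in the epithelium and 2084 to 2761 in the lamina propria. Plasma cell markers were lower in the epithelium for 3 of 3 tested, macrophage markers for 3 of 3 and fibroblast markers for 3 of 3, while 3 of 5 T cell markers were higher and 1 lower. Igha had a median of 33.6 CPM in the epithelium and 6370 CPM in the lamina propria. Their part in the member differences was not tested, beyond the removal of immunoglobulin genes, after which 31 members were lower and 0 higher. In Cd3e+ cells of at least 1000 molecules and 500 genes, 27 were lower and 0 higher.

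Colon against lamina propria gave changes in both directions in WT Cd3e+ cells. Of 83 members 13 were higher and 8 lower, where 21.3% of all genes were called (9.93% higher, 11.3% lower), and the median log2 ratio was 0.02 over members and 0.11 over all genes. The split was 30 higher and 5 lower with scaling to library totals and 14 and 14 by DESeq2. It was 7 and 3 without library 1, 15 and 6 without library 2 and 8 and 3 without library 3. The P stalk again split, with Rplp0 higher and both Rplp1 (−0.45) and Rplp2 (−0.46) lower. Rplp0 had 3649, 3218 and 4294 CPM in libraries 1 to 3 of the colon, against 1684, 1563 and 1752 CPM in the lamina propria (log2 ratio 1.16, SE 0.14, edgeR adjusted p = 3.83e-05). Every colon value was above every lamina propria value, by a mean of 3720 against 1666 CPM. Rpsa, which binds laminin as well as the small subunit, had 4526, 3973 and 5356 CPM in the colon, against 3070, 2549 and 3172 CPM in the lamina propria (log2 ratio 0.66, SE 0.15, edgeR adjusted p = 0.00432), again with no overlap.

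Further large-subunit genes higher in the colon were Rpl29 (log2 ratio 0.93), Rpl3 (0.76), Rpl8 (0.75) and Rpl21 (0.64), Rpl3 lying close to the peptidyl transferase centre. Rpl7l1, a low paralog of Rpl7, had 46.4, 45.8 and 39.4 CPM in the colon, against 20.8, 14.2 and 20.4 CPM in the lamina propria (log2 ratio 1.32, SE 0.36, edgeR adjusted p = 0.0155). Rpl7 itself stood at 1318 ± 170 CPM in the colon and 1041 ± 172 CPM in the lamina propria and did not pass (adjusted p = 0.116). Rps15 (−0.77), Rpl23a (−0.74) and Rpl37a (−0.62) were lower in the colon. The colon and epithelium comparisons share the lamina propria sums, so alike signs in both are not separate observations. Jchain had a median of 493 CPM in Cd3e+ cells of the colon and 2685 CPM in those of the lamina propria, and the part of such RNA in these differences was not tested.

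In WT Mzb1+ cells, colon against lamina propria, 5 members were higher and 2 lower, where 29.5% of all genes were called (14.7% higher, 14.8% lower). The median log2 ratio was 0.33 over members and 0.01 over all genes. Of the 7, 4 were paralog-like, of 6 such members tested. Rpl7l1 had 37.7, 20.6 and 27.1 CPM in libraries 1 to 3 of the colon, against 10.1, 11.1 and 8.63 CPM in the lamina propria (log2 ratio 1.48, SE 0.24, edgeR adjusted p = 0.00348). Rpl22l1, the paralog of Rpl22, had 339, 228 and 391 CPM in the colon, against 199, 186 and 168 CPM (log2 ratio 0.79, SE 0.23, edgeR adjusted p = 0.0345). Both were higher in the colon in every library. Rpl36al had 588, 618 and 495 CPM in the colon, against 1125, 1009 and 1125 CPM in the lamina propria (log2 ratio −0.94, SE 0.26, edgeR adjusted p = 0.0276). Rps27l had 172, 134 and 104 CPM in the colon, against 275, 231 and 233 CPM (log2 ratio −0.85, SE 0.22, edgeR adjusted p = 0.0203). Both were lower in the colon without overlap. Rpl21 (1.16), Rps15a (0.89) and Rpl29 (0.84) were the other 3 called, all higher. The counts depended on the scaling, at 35 higher and 4 lower by DESeq2, 46 and 0 with library totals and 33 and 4 without immunoglobulin genes, and leaving out library 1, 2 or 3 left 2, 3 or 1 in all. Among plasma cell markers 2 of 5 were lower in the colon, and among B cell markers 3 of 4 tested were higher, whose part was not tested.

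Among cell types of the WT colon, Ms4a1+ cells had 24 members higher and 0 lower than Cd3e+ cells, where 28.8% of all genes were called (13% higher, 15.8% lower). The median log2 ratio was 0.34 over members and −0.02 over all genes. Of the 24, 12 of 43 were large-subunit, 10 of 31 small-subunit and 2 of 6 paralog-like genes, and none were P stalk genes. Rps19, which in humans is mutated in Diamond-Blackfan anaemia, had 3823, 3530 and 3843 CPM in Ms4a1+ libraries 1 to 3, against 2270, 1798 and 2325 CPM in Cd3e+ cells (log2 ratio 0.82, SE 0.15, edgeR adjusted p = 0.000931). Rps20 had 5133, 4948 and 5970 CPM, against 3136, 2705 and 3711 CPM (log2 ratio 0.76, SE 0.15, edgeR adjusted p = 0.00188). Rps27 had 3778, 3533 and 4046 CPM, against 2365, 2080 and 2293 CPM (log2 ratio 0.75, SE 0.16, edgeR adjusted p = 0.00306). Ms4a1+ cells were higher in all 3 libraries for all 3 genes, without overlap.

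Others that rose in Ms4a1+ cells were Rps27rt (log2 ratio 0.68), Rpl7l1 (0.68), Rpl35 (0.67), Rpl35a (0.60), Rpl36a (0.57), Rpl26 (0.56) and Rps29 (0.55). Fau, whose product is a ubiquitin-like protein fused to a small-subunit protein, was also higher, at 6932 ± 871 against 4393 ± 471 CPM (log2 ratio 0.66, SE 0.14, edgeR adjusted p = 0.00366). Rplp0, at 3149 ± 131 CPM in Ms4a1+ and 3252 ± 452 CPM in Cd3e+ cells, did not pass (log2 ratio −0.04). The number of members higher was 67 by DESeq2 and 4 with library totals. It was 7, 3 and 26 without library 1, 2 or 3 and 12 without library as a block, with 0 lower each time. Median molecules per cell were 2976 to 3829 in Ms4a1+ and 4531 to 5118.5 in Cd3e+ sums of the colon, and the part of depth was not tested beyond cells of at least 1000 molecules and 500 genes, where 46 were higher.

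Mzb1+ cells of the colon differed from Cd3e+ cells in 3 members, all higher, where 24.1% of all genes were called (13.3% higher, 10.8% lower). The median log2 ratio was 0.04 over members and 0.01 over all genes. Rps27l, induced by p53 in human cells, had 306, 249 and 189 CPM in Mzb1+ libraries 1 to 3, against 102, 58.7 and 82.8 CPM in Cd3e+ cells (log2 ratio 1.63, SE 0.19, edgeR adjusted p = 5.41e-05). Rpl36al had 1047, 1145 and 900 CPM, against 601, 481 and 645 CPM (log2 ratio 0.85, SE 0.19, edgeR adjusted p = 0.00516). For both genes every Mzb1+ value was above every Cd3e+ value. Rpl41 was the third, with a log2 ratio of 0.39 that turns to −0.43 when libraries are scaled to totals. Under that scaling, which lets immunoglobulin molecules dilute all others, 1 member was higher and 78 lower and the median over all genes was −0.81, whereas DESeq2 called 12 higher and 12 lower. Without library 1, 2 or 3 the count was 1, 1 or 4.

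C1qa+ cells of the colon rest on 2 WT sums of 17 and 11 cells. Of the members 1 was higher and 46 lower than in Cd3e+ cells, where 7.82% of all genes were called (4.25% higher, 3.58% lower). The median log2 ratio was −0.74 over members and −0.64 over all genes. Whether the 2 medians have a common source in these small sums was not tested. The higher member was again Rps27l, with 213 and 241 CPM in C1qa+ libraries 1 and 3, against 102, 58.7 and 82.8 CPM in Cd3e+ libraries 1 to 3 (log2 ratio 1.40, SE 0.27, edgeR adjusted p = 0.00666). Lower members were led by Rpl12 (−1.30), Rps15a (−1.30), Rpl13a (−1.29), Rps18 (−1.17), Rpl4 (−1.15) and Rpsa (−1.15). Rps15a had 2009 and 1175 CPM in C1qa+ cells, against 3675, 3469 and 4213 CPM in Cd3e+ cells, so the 2 C1qa+ values differed widely but lay below all others. Rps19bp1 had 0 CPM in both C1qa+ sums. The number called was 28, 19 and 4 without library 1, 2 or 3, where leaving out library 1 or 3 leaves 1 C1qa+ sum that is assumed to vary like the others.

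Epcam+ cells of the colon had 3 members higher and 32 lower than Cd3e+ cells, where 58.9% of all genes were called (31.1% higher, 27.9% lower). The median log2 ratio was −0.28 over members and 0.01 over all genes. Rps27l had 381, 279 and 338 CPM in Epcam+ libraries 1 to 3, against 102, 58.7 and 82.8 CPM in Cd3e+ cells (log2 ratio 2.05, SE 0.19, edgeR adjusted p = 9.85e-07). Rps27, its namesake in the small subunit, had 1095, 1063 and 1098 CPM, against 2365, 2080 and 2293 CPM (log2 ratio −1.05, SE 0.16, edgeR adjusted p = 8.83e-05). The paralogs thus moved in opposite directions, each without overlap. Rps27rt, a mouse retrogene of Rps27, moved as Rps27 did, at 26.3, 17.9 and 20.6 CPM in Epcam+ cells, against 47.9, 37.1 and 52.2 CPM in Cd3e+ cells (log2 ratio −1.10, SE 0.18, edgeR adjusted p = 0.000186). Rps27rt and Rps27 are close in sequence, and reads may be split between them.

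The other named members in Epcam+ cells were mostly lower: Rps15a (log2 ratio −1.03), Rpl13a (−0.83), Rps24 (−0.78), Rps21 (−0.70), Rpl37a (−0.69) and Rps13 (−0.68). Rps19bp1 (log2 ratio 0.41) was higher. Large-subunit genes were lower in 15 of 43 cases and small-subunit genes in 16 of 31. Rpsa was lower too (−0.60), as was Fau (−0.80). DESeq2 called 20 higher and 41 lower, and without library 2 there were 1 and 10. Median molecules per cell were 4322.5 to 10739.5 over the Epcam+ sums and 4531 to 5118.5 over the Cd3e+ sums of the colon, and the part of depth was not tested.

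**Figure D5:**
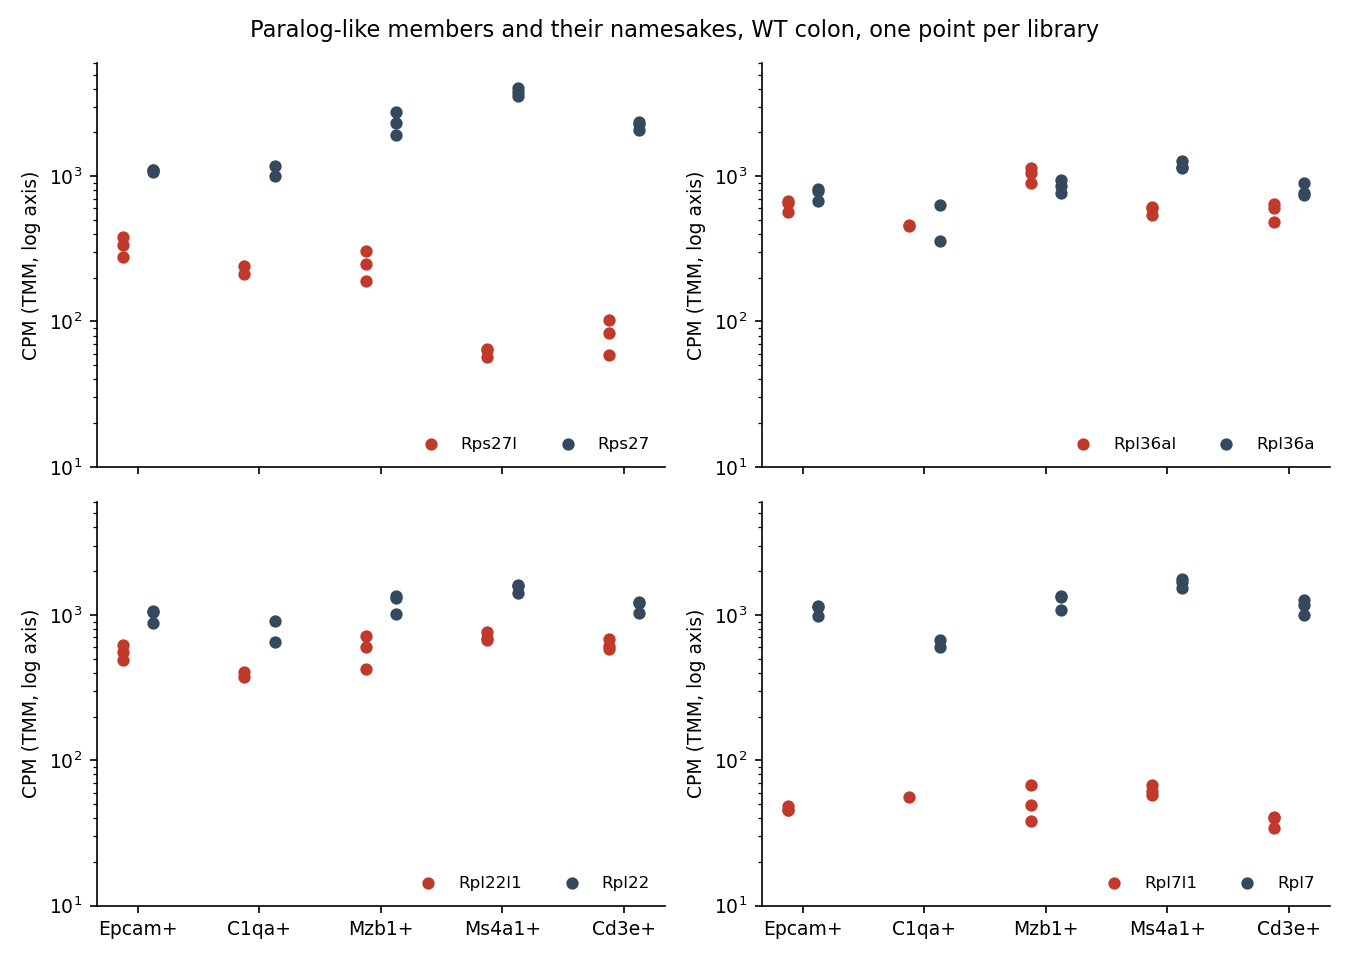
Levels of 4 paralog-like members (red) and their namesakes (blue) in CPM on a log axis, for WT colon cells of each gate, one point per library (2 for C1qa+ cells). Rps27l is higher in Epcam+, C1qa+ and Mzb1+ than in Cd3e+ cells while Rps27 is highest in Ms4a1+ cells, and Rpl36al is highest in Mzb1+ cells, where it is above Rpl36a in mean (1031 against 850 CPM).

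Paralogs and their namesakes had different orders over the gates. Rpl36al averaged 1031 ± 123 CPM in Mzb1+, 585 ± 40.8 CPM in Ms4a1+ and 576 ± 84.6 CPM in Cd3e+ cells of the WT colon (SD, n = 3). Rpl36a averaged 850 ± 89.0, 1188 ± 74.5 and 803 ± 86.8 CPM in the same gates. Levels of Rps27l in the colon ran from Epcam+ (332 ± 51.2 CPM) through Mzb1+ (248 ± 58.7), C1qa+ (227 ± 19.7, n = 2) and Cd3e+ (81.1 ± 21.7) to Ms4a1+ cells (62.0 ± 4.32). Neighbours in this order overlap within the first 3 and within the last 2, and the step between C1qa+ and Cd3e+ cells has no overlap. Rpl22l1 ran only from 390 ± 19.3 CPM in C1qa+ to 709 ± 49.4 CPM in Ms4a1+ cells and passed the test against Cd3e+ cells in no gate. CPM here are scaled within the fit of the 5 colon gates and differ from those of the genotype and tissue fits.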

How the data were processed

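Gene and hashtag tables of small bowel epithelium, lamina propria and colon were used as deposited. They hold raw counts of unique molecules per feature and cell, with names of cells and features (other) in separate deposited lists; the authors aggregated libraries by tissue. Cell Ranger, Seurat and mm10 are named in the submitters' processing notes, with versions not given in the sources used here. Reads that fit near-identical genes were handled in a way not stated there.

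Cells with 200 to 8000 genes, 300 to 50000 molecules and under 20% mitochondrial molecules were kept, after the limits in the design text. No doublet caller was run, but the 22332 cells with 2 or more gate markers were left out. Summed counts were tested with edgeR 4.0.16 (limma 3.58.1, R 4.3.3) by its quasi-likelihood test after TMM scaling and filterByExpr, with Benjamini-Hochberg adjustment over all genes and calls at an adjusted p under 0.05. Scaled CPM therefore differ slightly between fits. Scaled to library totals instead were the CPM of Rps18 and Gm10260 added together, of H2-Q2 and of St8sia6. The same holds for the order of member levels and the medians of Jchain and Igha. Genotype and cell type fits had library as a block, because the genotypes of a library were pooled in a capture: its 3 endings share 0 barcodes. Tissue fits had none. Shares of molecules were compared by exact permutation tests (scipy 1.17.1). These shuffled the sums freely and did not pair genotypes or gates of the same library. DESeq2 1.42.0, library totals, other filters, gates and hashtag rules and left-out libraries were alternatives. The edgeR fits were tested on simulated data, and tables and figures were made with python 3.11.15, pandas 2.3.3, numpy 2.4.6 and matplotlib 3.10.9.

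Members and lists were chosen with earlier results of these data known. Named were Rps18, Rpsa, the P stalk, paralogs with namesakes, and the 10 called members with the largest ratio in a comparison, or the 2 with the smallest p where none was called. A called member that this rule names is not reported here. The 3 runs are described as independent, and p-values measure the spread between them.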

Additional observations from a re-analysis of the deposited data

How the results depend on the processing

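Counts of called members by edgeR depended on the processing. For KO against WT in Cd3e+ cells of the epithelium the count of 0 became 1 with library totals, 1 without a filter on low counts and 1 with genotype taken by hashtag share, and in those of the lamina propria 2 without a filter. For het against WT in the epithelium it became 1 by DESeq2, 2 without a filter and 0 to 1 with a library left out. For epithelium against lamina propria (26) it was 16 with totals, 15 without a filter, 14 with a gate of 2 molecules, 6 to 18 with a library left out and 55 with all genotypes summed. For colon against lamina propria in Cd3e+ cells (21) it was 35 with totals, 32 without a filter, 10 to 21 with a library left out and 34 with all genotypes. In Mzb1+ cells (7) it was 39 by DESeq2, 46 with totals, 0 by hashtag share, 3 with the gate of 2, 37 without immunoglobulin genes, 1 to 3 with a library left out and 23 with all genotypes. For Ms4a1+ against Cd3e+ cells (24) it was 67 by DESeq2, 4 with totals, 7 without a filter, 0 by hashtag share, which leaves 1 Ms4a1+ sum, 8 with the gate of 2, 46 in deep cells, 43 without immunoglobulin genes, 3 to 26 with a library left out and 59 with all genotypes. For Mzb1+ against Cd3e+ cells (3) it was 24, 79, 10 in deep cells, 8 without immunoglobulin genes, 1 to 4 with a library left out and 14 with all genotypes, the first 2 values being DESeq2 and totals. For C1qa+ cells (47) it was 23 in deep cells, which leaves 1 C1qa+ sum, and 4 to 28 with a library left out, and for Epcam+ cells (35) 61 by DESeq2, 7 by hashtag share and 11 to 34 with a library left out. A lone sum is assumed to vary like the others. The causes were not tested. Without the library block, which takes its pairing from the shared capture, the counts were 12 for Ms4a1+ and 29 for C1qa+ cells, and the Gm10260 log2 ratio of KO over het in the colon was 0.27; it moved no other count by over 1.5 times. No paired analysis was possible between tissues because their library numbers are not tied to runs.

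The Rps18 log2 ratio of KO over WT changed sign when Gm10260 was added, to −0.0057 (Cd3e+, epithelium), −0.023 (Cd3e+, colon), −0.0174 (Ms4a1+, colon) and −0.147 (Mzb1+, colon), and for het over WT to −0.0629, −0.0531 and −0.0022 in epithelium, lamina propria and colon. With a library left out it ran from −0.0494 to 0.395 (Cd3e+), −0.0028 to 0.334 (Ms4a1+) and −0.239 to 0.255 (Mzb1+ cells of the colon), and for het over WT in the colon from −0.0414 to 0.421, the lowest value in each case being without library 2 and the highest without library 3. In Mzb1+ cells of the colon it was −0.111 with totals and −0.0022 with the gate of 2. Gm10260 of KO over het in Cd3e+ cells of the colon, −0.00095 in the report's fit, was 0.451 by DESeq2, 0.0090 without a filter, 0.114 with the gate of 2, 0.0051 in deep cells, 0.0034 without immunoglobulin genes and −0.23 to 0.781 with library 1 or 3 left out. Rpl41 in Mzb1+ cells turned to −0.43 with totals. The difference in share of molecules in Cd3e+ cells turned to −0.199 percentage points for KO minus WT in the lamina propria with the gate of 2, and by hashtag share in the colon to 0.313 for KO minus WT, 0.553 for het minus WT and −0.240 for KO minus het. The hashtag-share alternative could not be fitted for Ms4a1+ cells of the colon, KO against WT, or for C1qa+ cells. Of the other values, 1065 were unchanged. For genes this means the same direction and the same state, called or not called, and for shares of molecules the same direction alone. A call was lost in 109 and gained in 17.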

Other observations

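Other genes of translation were read as lists, by the same edgeR fits, and each list is described by its counts only. In Epcam+ against Cd3e+ cells of the WT colon, where 31.1% of all genes were called higher and 27.9% lower, 48 of 78 mitochondrial ribosomal protein genes were higher and 0 lower, with a median log2 ratio of 0.50, beside 3 higher and 32 lower of 83 cytosolic ones. Of 4 translation repressors (Larp1 and the Eif4ebp genes, whose products hold back cap-dependent translation) 3 were higher. In Ms4a1+ cells, where 13% of all genes were higher and 15.8% lower, 3 of 78 mitochondrial genes were higher and 8 lower, and 9 of 22 ribosome biogenesis genes, which serve the nucleolar assembly of ribosomes, were higher and 0 lower, with a median of 0.54.

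Between tissues, 14 of 78 mitochondrial ribosomal protein genes were higher and 0 lower in Cd3e+ cells of the colon than of the lamina propria, with a median of 0.60, where the median over all genes was 0.11 and 9.93% of all genes were higher and 11.3% lower. Of 16 translation factor and related genes, 6 were higher and 0 lower there. In Mzb1+ cells of the colon 7 of 22 biogenesis genes were higher and 0 lower than in the lamina propria, beside 14.7% of all genes higher and 14.8% lower. The lists were chosen with earlier results of these data known, and nothing particular to them was tested.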
